A study of Strongylocentrotus purpuratus with 6 samples.

Results

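The Tbx23 locus of the purple sea urchin, *Strongylocentrotus purpuratus*, is the stretch of Scaffold364 around 16 candidate cis-regulatory modules (CRMs) of the gene Tbx23. A CRM here is a DNA piece of a few kilobases that was placed in a reporter construct to ask whether it can drive expression. The 16 windows run from 446885 to 518716 in version 3.1 of the genome. With 2 kb added on each side, they gave a span of 75832 bp from 444885 to 520716, and every RNA polymerase II (Pol II) peak that overlapped this span by at least 1 bp was taken. That made 39 of the 554846 peaks of the deposited list and 16 of the study's 389 CRMs, which belong to 37 genes. The locus was chosen by its Pol II signal and by the reporter activity of its intronic CRMs. Neither of these measures is used here, and since the peaks come from the same ChIP, all values are given as a description with no test.

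Pol II is the enzyme that transcribes protein-coding genes, and chromatin immunoprecipitation with sequencing (ChIP-seq) finds the DNA that it is crosslinked to. The series holds 3 Pol II ChIP samples and 3 inputs, chromatin taken before immunoprecipitation, with 1 input matched to each ChIP sample, all from whole hatching blastula embryos at 20 h of development with no further treatment or genotype in the labels. The antibody, 8WG16, recognises the heptapeptide repeat of the C-terminal domain of the largest Pol II subunit. The samples were combined into 1 list of peaks, stretches where ChIP reads exceeded the input, so no value below has a replicate spread, and signal in a few cells cannot be told apart from weak signal in many.

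Tbx23, listed by RefSeq as Tbx2/3 with the gene ID 575938, encodes a T-box transcription factor, a protein that binds DNA through the conserved T-box domain and whose vertebrate relatives Tbx2 and Tbx3 are best known as repressors. In sea urchin embryos the gene acts in the network that specifies the aboral ectoderm, the epithelium on the side away from the mouth. Pol II pauses near the start of many animal genes and then travels through the gene body, so a ChIP peak can mark the start, an enhancer or a transcribed intron. In the CRM names the letter U was read as upstream of the gene, I as intronic and D as downstream. Along the scaffold the U windows have the highest coordinates and the D windows the lowest, so the gene reads towards lower coordinates. No gene annotation of this genome version was used, and the start site and the exons are therefore not placed.

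Peaks covered 54238 bp of the Tbx23 span, or 71.5%. The list as a whole was much sparser. When the scaffolds long enough were cut into neighbouring tiles of the length of the span, 32 of 9398 tiles (0.34%) were covered at least as far as the Tbx23 locus, and the median tile was covered to 18.7% with quartiles of 11.9% and 27.6%. Its own scaffold was also sparser, and the remaining 703411 bp up to the last peak were covered to 17.3% by 359 peaks. Cover was spread unevenly within the span. Of its 75 complete windows of 1 kb, 37 were fully under peaks and 4 held no peak. The fully covered windows were 29 of 32 in the intronic stretch, 5 of 18 upstream and 3 of 25 downstream, and all 4 empty windows lay downstream. The lowest intronic window was still covered to 90.1%, against 7% for the lowest upstream window.

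**Figure D1:**
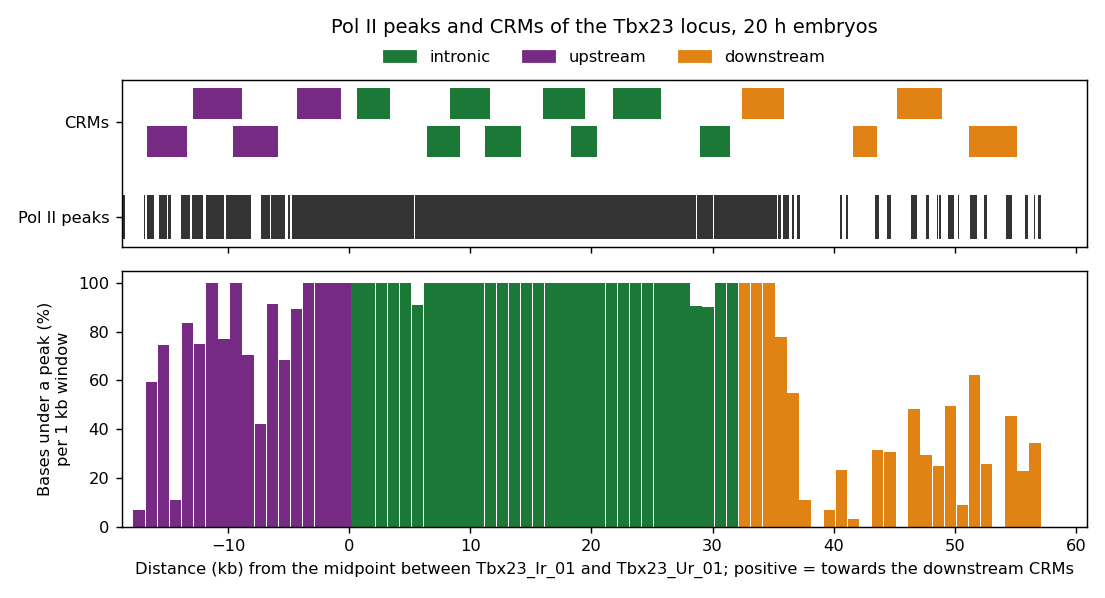
Upper panel: the 16 Tbx23 CRMs (coloured by class, on staggered rows) and the 39 Pol II peaks (black), by distance in kb from the midpoint between Tbx23_Ir_01 and Tbx23_Ur_01, with upstream to the left. Lower panel: percent of bases under a peak in each of the 75 windows of 1 kb, with no intronic window under 90.1% and 4 empty windows downstream.

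A few very long peaks carried most of this cover. The longest peak, from 473419 to 496586, measured 23168 bp, held 42.7% of all covered bases of the span and contained 6 intronic CRMs whole, Tbx23_Ir_02 to Tbx23_Ir_07. Only 15 peaks of the list, this one included, were at least as long. The next, from 496679 to 506776, measured 10098 bp and contained Tbx23_Ir_01 and Tbx23_Ur_01. It therefore reached across the 1330 bp between the first intronic and the first upstream window without a break. The third, from 466709 to 471884, measured 5176 bp and lay over parts of Tbx23_Dr_01 and Tbx23_Ir_08. The fourth, from 510181 to 512218, was an upstream peak of 2038 bp shared by the overlapping windows Tbx23_Ur_02 and Tbx23_Ur_03. The fifth, from 471984 to 473324, was an intronic peak of 1341 bp over the rest of Tbx23_Ir_08. These 5 peaks made up 77.1% of the covered bases and 55.2% of the span.

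All but the upstream one of the 5 longest Tbx23 peaks stood in a row. The 4 peaks from 466709 to 506776 were parted by gaps of only 99, 94 and 92 bp and formed a run of 40068 bp of which 99.3% was under a peak. The run started inside the downstream window Tbx23_Dr_01, 584 bp from its far end, went through all 8 intronic windows and ended 453 bp beyond the upstream window Tbx23_Ur_01. When peaks under 100 bp apart were joined throughout the list, 6 of 495030 joined peaks were at least as long as this run. Among the 37 CRM loci the next longest was 23285 bp at IrxA, an Iroquois homeobox gene. The allowed gap decides this value. With joining under 50 bp the Tbx23 run stayed at the single peak of 23168 bp, close to the 23028 bp of IrxA. With joining under 150 bp it grew to 41397 bp, and with joining under 300 bp to 44532 bp, where Dach, a Dachshund-family gene, had a longer run of 51774 bp.

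The 8 intronic windows were almost wholly under Pol II. Of these, 7 (Tbx23_Ir_01 to Tbx23_Ir_07) lay entirely within a single peak, over lengths from 2196 bp in Tbx23_Ir_06 to 3957 bp in Tbx23_Ir_07. Tbx23_Ir_08, the window nearest the downstream side, was covered over 2336 of its 2435 bp (95.9%) by 2 peaks, and its missing 99 bp, from 471885 to 471983, were the longest peak-free gap of the intronic stretch. The class came to 21276 of 21375 bp (99.5%), or 99.5 ± 1.44% per CRM (SD, n = 8 windows). These windows are not independent. Tbx23_Ir_06 shares 1203 bp with Tbx23_Ir_05, Tbx23_Ir_03 shares 350 bp with Tbx23_Ir_04 and 802 bp with Tbx23_Ir_02, and 6 of the 8 read from the same peak. A peak list shows where Pol II passed the caller's threshold and not how much was bound, so it gives no order among the 7 full windows.

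Upstream cover was high next to the gene and lower farther out, though not evenly. Tbx23_Ur_01, at 502692 to 506323, was fully under the second-longest peak. Tbx23_Ur_02 was covered over 2728 of 3688 bp (74.0%) by 3 peaks, with 874 bp of uncovered sequence in a row. Tbx23_Ur_03, which shares 711 bp with it, was covered over 3580 of 4060 bp (88.2%) by 4 peaks. Tbx23_Ur_04, the farthest at 515393 to 518716, was covered over 1891 of 3324 bp (56.9%), also by 4 peaks. The 3 outer windows thus held more peaks than the first, but these left more of the sequence uncovered. As a class the upstream windows were covered over 11120 of 13993 bp (79.5%), or 79.8 ± 18.6% per CRM (SD, n = 4 windows). The longest upstream gap, 1624 bp from 518955 to 520578, lay beyond the last window.

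Downstream, the window that touches the run had far more cover than the other 3. Tbx23_Dr_01, at 466125 to 469628, was covered over 3280 of 3504 bp (93.6%), and 2920 of its bases belonged to the run. Tbx23_Dr_02 had a single peak over 130 of its 1952 bp, the lowest cover of the 16 windows at 6.66%, and 1822 bp without a peak. Tbx23_Dr_03 was covered over 1028 of 3745 bp by 4 peaks. Tbx23_Dr_04, at 446885 to 450857, was covered over 1332 of 3973 bp (33.5%) by 3 peaks. Peaks were thus present in every downstream window, but in the outer 3 they took up at most 33.5% of the bases. The class was covered over 5770 of 13174 bp (43.8%), or 40.3 ± 37.4% per CRM (SD, n = 4 windows). The longest gap of the span, 2745 bp from 462030 to 464774, fell between Tbx23_Dr_01 and Tbx23_Dr_02 in no CRM.

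**Figure D2:**
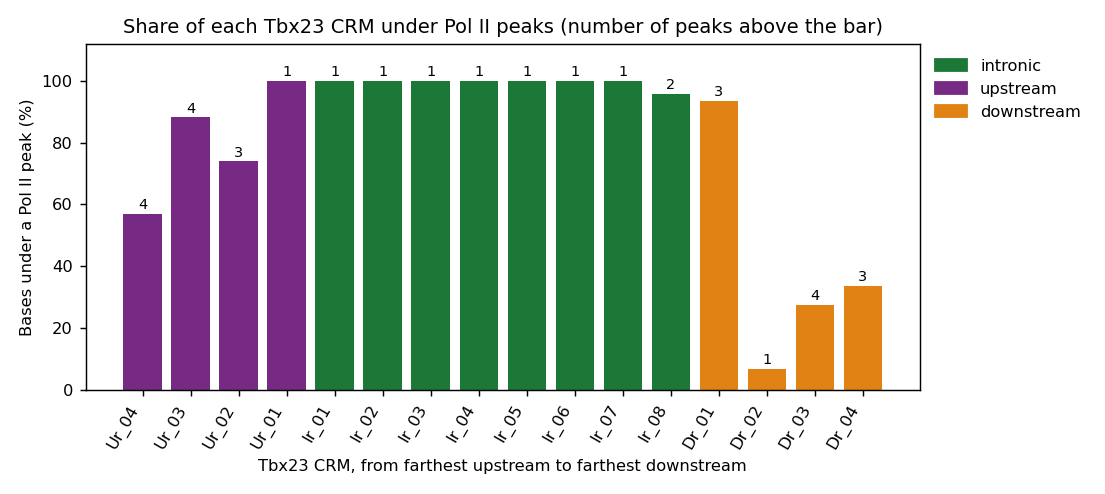
Percent of bases under a Pol II peak for each of the 16 Tbx23 CRMs, from farthest upstream to farthest downstream, with the number of overlapping peaks above each bar. The 7 windows from Ir_01 to Ir_07 and Ur_01 reach 100%, and Dr_02 is lowest at 6.66%.

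Cover next to the run was likewise higher upstream than downstream. In the 5 kb next to it, peaks covered 72.3% on the upstream side and 26.5% on the downstream side, and in the first 10 kb they covered 71.0% and 22.1%. The number of peaks did not follow this order, with 8 peaks in the upstream and 9 in the downstream 10 kb. Over the whole downstream remainder of the span, 21.8 kb, 22 peaks covered 26.2%, and the longest of them measured 621 bp. In the upstream remainder 13 peaks had a median length of 617 bp. Peaks were thus about as frequent on both sides, with 9.33 per 10 kb upstream and 10.1 per 10 kb downstream, but shorter downstream. Beyond the span the difference went on. The next 50 kb on the upstream side were covered to 42.4% by 49 peaks, and the next 50 kb on the downstream side to 14.1% by 24 peaks.

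Set against the other CRMs of the study, the Tbx23 windows were more often fully covered, mainly the intronic ones and not the downstream ones, while the presence of a peak was common to nearly all. All 16 overlapped a peak, as did 383 of all 389 CRMs (98.5%). By contrast, 8 of 16 were entirely under peaks, against 78 of 389 (20.1%). Most of these were intronic, where 7 of 8 Tbx23 windows were fully covered, against 57 of 166 intronic CRMs of all genes (34.3%). Upstream it was 1 of 4, against 9 of 133 (6.77%), and downstream 0 of 4, against 12 of 90 (13.3%). The 7 intronic windows are not separate cases, since 6 of them lie in the same peak and some overlap. A peak of at least 1000 bp touched 12 of the 16, against 248 of 389 (63.8%). The counts over all genes include Tbx23, and since the locus was chosen with Pol II values known, nothing beyond the description is read from these shares.

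**Figure D3:**
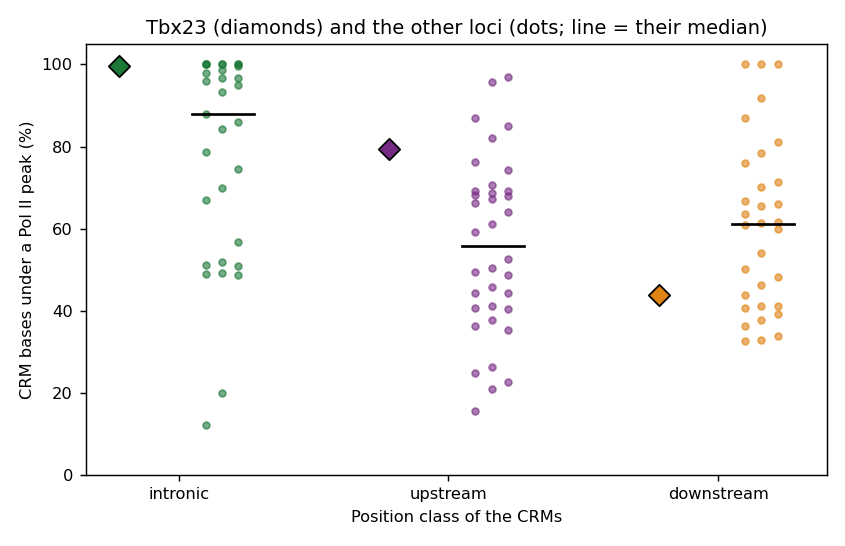
Percent of CRM bases under a Pol II peak by position class, intronic, upstream and downstream. Tbx23 has 99.5%, 79.5% and 43.8%, and the points for the other loci with windows of that class (31, 36 and 32 loci) show their spread around their medians.

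Class by class, the Tbx23 locus was in the upper part of the other loci for intronic and upstream windows and in the lower part for downstream ones. Its intronic cover of 99.5% stood beside 77.8 ± 25.5% in the other loci (SD, n = 31 loci), 8 of which were higher. Its upstream cover of 79.5% stood beside 55.7 ± 21.4% (SD, n = 36 loci), with 5 higher. Its downstream cover of 43.8% stood beside 60.6 ± 20.8% (SD, n = 32 loci), with 23 higher. The upstream value thus lay more than 1 SD above the other loci, and the downstream value lay within 1 SD of theirs. For intronic cover the SD cannot place Tbx23, because the mean of the other loci plus 1 SD exceeds the possible maximum of 100%. The median intronic cover of the other loci was 87.9%. Taken within a locus, Tbx23 intronic cover exceeded its upstream cover by 20.1 percentage points, less than in 15 of the 27 other loci that have all 3 classes. Intronic cover exceeded downstream cover by 55.7 points, where only 2 of the 27 had a larger difference. The direction itself was common, with intronic above upstream cover in 23 of the 27 and above downstream cover in 21. Upstream cover exceeded downstream cover by 35.7 points, where 1 of the 27 had a larger difference, and 13 of the 27 had a difference above 0.

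Long peaks were more frequent in the span than in the list as a whole. Of its 39 peaks, 7 measured at least 1000 bp, against 26155 of 554846 in the list (4.71%). The short peaks were nevertheless the majority, with 20 of the 39 under 300 bp and a shortest peak of 67 bp. The median peak of the Tbx23 span was 295 bp, against 217 bp in the list, but 23 of the other 36 CRM loci had a longer median peak than Tbx23. Short gaps lay mainly in the intronic and upstream stretches. Of 38 gaps between neighbouring Tbx23 peaks, 8 were under 100 bp, against 59816 of 535616 gaps in the list (11.2%). The 3 gaps of the intronic stretch measured 92 to 99 bp, the 13 upstream gaps 60 to 1624 bp with a median of 170 bp, and the 22 downstream gaps 53 to 2745 bp with a median of 524.5 bp. The downstream gaps, which were most of the 38, were thus about as long as those of the list, whose median was 557 bp. Gaps under 100 bp were therefore found in all 3 stretches, but only in the intronic stretch were they the sole kind. This cut was chosen after the gaps were seen.

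**Figure D4:**
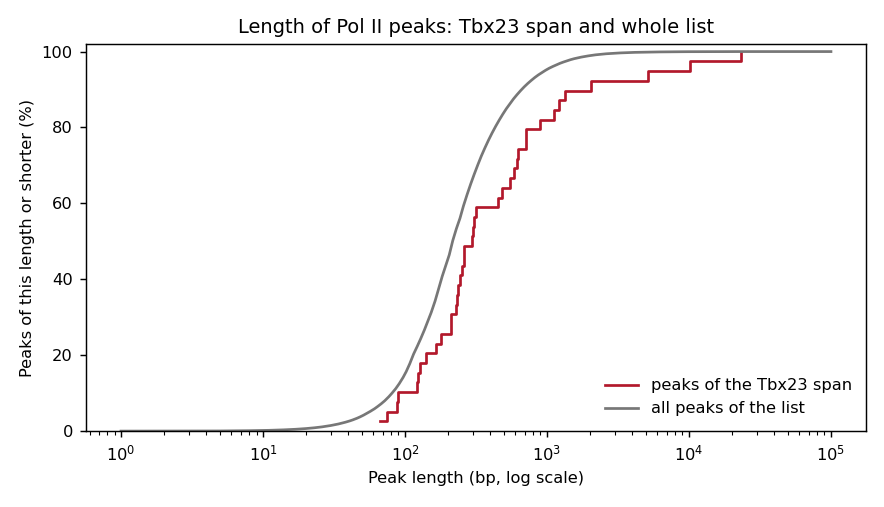
Lengths of the 39 Pol II peaks in the Tbx23 span and of all 554846 peaks of the list, in bp on a log axis, as the percent of peaks at most that long. The Tbx23 median is 295 bp and that of the list 217 bp, and the Tbx23 curve ends at 23168 bp.

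The sequence between the CRMs was covered as well, with a lower total that depended on position. The 11 intervals between neighbouring Tbx23 windows hold 23290 bp, of which 65.5% was under a peak, while the windows themselves, merged where they overlap, were covered to 78.6% of 48542 bp. Of the 11 intervals, 4 were fully covered and 0 held no peak. In the other 36 loci the corresponding means were 52.4 ± 24.5% between CRMs and 62.0 ± 18.7% within them (SD). At Tbx23, intervals between intronic windows were covered to at least 96.95%, beside 99.5% of the intronic window bases. Intervals between downstream windows were covered to 21.4% to 30.2%, beside 6.66% to 33.5% in Tbx23_Dr_02 to Tbx23_Dr_04. The lower total is therefore not read as a preference for the tested windows. Thus Pol II peaks at Tbx23 did not stop at the borders of the tested windows, and the long peaks in particular ran through both.

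By total cover the Tbx23 span came 8th of the 37 loci, with 71.5% against 55.1 ± 18.0% in the other 36 (SD), which reached from 13.9% at Ecr, a nuclear receptor gene, to 85.5% at Chordin, which encodes a BMP antagonist. Its neighbours in that order were Id, a helix-loop-helix gene, with 71.9% and Z188, a zinc finger gene, with 71.0%. With no replicate spread, whether Tbx23 differs from these neighbours was not tested. The Tbx23 span held few peaks for its length and 1 very long one, while its typical peak was not long. It had 5.14 peaks per 10 kb, against 7.82 ± 2.79 in the other loci (SD), of which 29 had more. Its longest peak, of 23168 bp, was longer than that of each of the other 36, whose median was 5110 bp. The lead over IrxA, with a peak of 23028 bp, was small. Tbx23 also had a long span, with only 6 of the 36 longer. Its median peak of 295 bp, in contrast, was shorter than that of 23 of the 36, whose median was 324.5 bp. Fully covered windows of 1 kb made up 49.3% of the Tbx23 span, against 22.7 ± 18.6% in the other loci (SD), with 6 higher.

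**Figure D5:**
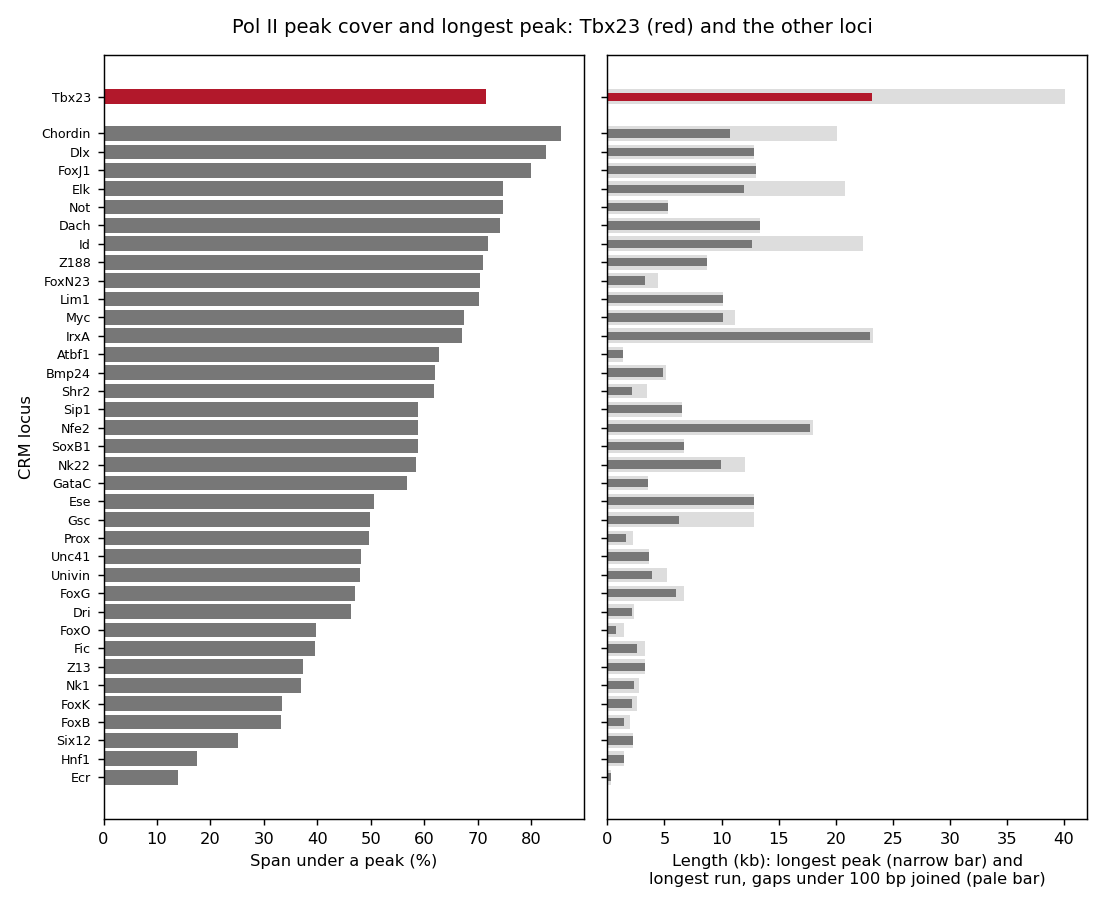
Left: percent of each span under Pol II peaks for the 37 CRM loci, with Tbx23 (red, 71.5%) on top and the other 36 below it by falling cover, from 85.5% at Chordin to 13.9% at Ecr. Right: length in kb of the longest peak (narrow bars) and of the longest run after joining peaks under 100 bp apart (pale bars), which reach 23168 bp and 40068 bp at Tbx23 and 23028 bp and 23285 bp at IrxA. The cut of 100 bp was chosen after the data were seen.

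The locus whose cover was most like that of Tbx23 over the 3 position classes was IrxA. Likeness was measured as the sum of the absolute differences in percent covered over the 3 classes, and IrxA differed by 16.1 points in all, with 100% intronic, 68.2% upstream and 48.2% downstream cover. Id came next with 16.4 points, having 99.6%, 95.8% and 43.8% in the same classes. SoxB1, an HMG-box gene of the Sox family, followed with 25.3 points, having 100%, 76.3% and 65.5%. In each of the 3, as at Tbx23, intronic cover was highest and downstream cover lowest. Since they were picked for likeness in these same values, nothing is read from the shared order.

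At the edges of the span the rule decided on single small peaks. On the upstream side the last peak taken, from 520579 to 520815, had 138 of its 237 bp inside, and the next, 492 bp long, began 399 bp beyond the edge. On the downstream side the first peak taken was 254 bp long and wholly inside, and the nearest one left out lay 3983 bp away and measured 132 bp.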

How the data were processed

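Pol II ChIP-seq (3 samples) and input (3 samples) of 20 h embryos entered as 1 peak list. The authors pooled replicates, aligned reads to genome version 3.1, and called peaks against input with MACS at default settings. The submitters' processing notes name Bowtie 1.0.1, CASAVA 1.8 and MACS 1.4.2, whereas the study's methods name Bowtie 2. The deposited values are peak start and end positions in bp (no count, signal or score), so the depth behind a peak is unknown and breadth was the only measure. Whole-embryo chromatin averages all cell types.

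CRM names and windows came from the study's published list. Its other columns were not used. Starts were taken as counted from 0. Bases of overlapping CRMs were counted once per class. Tiles of the length of the Tbx23 span ran from the start of each scaffold to its last peak, and shorter remainders were left out. The rule for single items named the 5 longest peaks, the longest gap of each class, the 3 loci most alike and both neighbours in the order by cover. The peaks at the span's edges, the longest peak of the scaffold outside it, the uncovered stretches within single CRMs and the loci Dach, Chordin and Ecr were named after their values were seen. The locus, these lists and the rules were chosen with earlier results of these data known. Alternatives concerned peak length, minimum overlap, joining, flank and averaging. Code was tested on simulated data. Python 3.11.15, numpy 2.4.6, scipy 1.17.1 and matplotlib 3.10.9 were used.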

Additional observations from a re-analysis of the deposited data

How the results depend on the processing

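With no replicate spread, counts and places were called changed past a ratio of 1.5, and percents past a 95% Wilson binomial interval over bases, which are not independent, so this division is only a convention. By it 12 of 51 recomputed values changed and 39 did not. The peaks in the Tbx23 span numbered 19 when only those of at least 300 bp were kept. The span, covered to 71.5%, had 70.4% with peaks of at least 150 bp, 66.9% with at least 300 bp, 74.4% with no flank and 65.0% with 10 kb on each side. Upstream CRM cover was 76.5% with peaks of at least 300 bp. Downstream CRM cover was 41.9% with at least 150 bp, 35.8% with at least 300 bp and 40.3% as a mean per CRM. Joining peaks under 100 bp apart, an alternative chosen after seeing the data, gave 72.4% for the span, 100% for intronic and 81.2% for upstream CRMs. The order of the 3 classes, intronic above upstream above downstream, was kept in each of these. The place of Tbx23 among the 37 loci was 8 under the length and joining alternatives, 9 with no flank and 6 with 10 kb. No paired analysis was possible because replicates were merged before peak calling, and none of them could be left out. The list has no score, so peak length stood in for a stricter threshold.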

Other observations

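Outside the Tbx23 span, Scaffold364 held 359 Pol II peaks with a median length of 211 bp, of which 18 measured at least 1000 bp. The longest of them, 5264 bp from 592630 to 597893, would have been the third longest inside the Tbx23 span. These positions belong to no CRM of the study's list, and no gene is named for them here.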
